A study of Mus musculus with 4 samples.

Results

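The retinoid metabolism and transport genes were Stra6, Crabp2, Rdh10, Dhrs3, Aldh1a1, Aldh1a3, Cyp26b1 and Rarb. These 8 genes were chosen by name from the 32285 genes of the count matrices and were followed across epithelial lineages, libraries and antibody tags. Cells take up vitamin A as retinol, oxidise it first to retinal and then to retinoic acid, and break retinoic acid down again with cytochrome P450 enzymes. Retinoic acid acts by binding nuclear receptors that switch on target genes, and the pathway is best known in epithelia for steering differentiation and for holding back keratinisation. In the mammary gland, aldehyde dehydrogenase activity is also widely used to mark progenitor cells. All but Rarb act in uptake, binding, synthesis or breakdown, whereas Rarb is a receptor and a target of the pathway.

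The cells were mouse mammary organoids grown in Matrigel from wild-type mice or from littermates carrying a truncating Brca2 mutation on a single allele (Brca2mut/WT). Organoids of each genotype were left untreated (control) or were exposed to hydroxyurea (HU), which starves cells of nucleotides and stalls replication forks. There was 1 droplet library in each of the 4 conditions, namely wild-type control, wild-type HU, Brca2mut/WT control and Brca2mut/WT HU, and each library pooled cells marked with 4 antibody tags. The label of each library names 2 replicates, but no key ties a tag to a mouse or replicate, so tags are given here as pools 1 to 4 and are not treated as replicates. A tag number need not stand for the same animal in different libraries. The study's methods describe early and late passages and a number of mice that differs from the replicates in the labels, and which passages or how many HU exposures a library or tag holds is not given in the sources used here.

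After filtering, 17360 of 33268 barcodes were kept, with 418167072 unique molecular identifiers (UMIs) assigned to genes. In the library order just given, 5312, 4617, 4138 and 3293 cells were kept, and the median depth was 24180 to 26893 UMIs per cell. Basal cells were those with at least 500 CPM (the share of the cell's gene UMIs multiplied by 1e+06) of the basal keratin Krt14, HR+ luminal cells those with at least 300 CPM of the hormone target Areg, and HR- luminal cells those with under 300 CPM of both. This gave 14008 HR- luminal, 2217 basal and 569 HR+ luminal cells, while 457 cells fell between the thresholds and 109 passed both. The rule cut through a continuum, as 731 cells lay between 300 and 700 CPM of Krt14 against 2326 at or above its threshold, and 183 lay between 200 and 400 CPM of Areg against 678. Of the marker genes, 6 of 6 for HR- luminal, 9 of 9 for basal and 6 of 8 for HR+ luminal cells were highest in their own class in all 4 libraries. Markers of immune, endothelial and adipose cells stayed at or below 7.6 CPM. The stromal markers Col1a1, Col1a2, Col3a1, Lum and Pdgfra were under 1 CPM in HR+ luminal cells, although Dcn was present there. The libraries shared 40 barcodes over all pairs, no doublet caller was applied, and 1830 cells carried no single dominant tag. Brca2 itself stood at 5.46, 5.13, 4.32 and 3.90 CPM in HR- luminal cells, in the library order given above, which is kept in all lists of 4 values that follow.

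Levels are CPM of the UMIs summed over all cells of a class, so that a lower share of expressing cells and less RNA per expressing cell cannot be told apart in them. Square brackets hold exact 95% Poisson intervals, and exact binomial intervals for ratios and shares. All of them cover counting error only, and with 1 library per condition no difference between libraries could be tested.

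Rarb is the retinoic acid receptor that retinoic acid itself induces, through a pair of hexamer half-sites in its promoter. The sequence is shown because the direct repeat that makes this gene a standard readout of the pathway could be found in it. The 100 bases before the RefSeq start lie at chr14:16575477-16575576 on the minus strand of GRCm38.p6, and the capitals mark the 2 half-sites that form the repeat; a further half-site upstream of it is left in lower case.

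Rarb: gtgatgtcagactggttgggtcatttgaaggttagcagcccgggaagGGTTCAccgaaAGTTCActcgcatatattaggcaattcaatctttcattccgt

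The repeat ran from 53 to 37 bases before the start, with 5 bases between its hexamers. A half-site (the hexamer AGGTCA or the hexamer AGTTCA or the hexamer GGGTCA or the hexamer GGTTCA, on either strand) occurred in the 250 bases before the start in 38.6% of 32851 RefSeq promoters, whereas a direct repeat with a 5-base spacer occurred in 0.0883%, or 29 of them. Of the 11 promoter entries that matched 5 of the named genes, 2 held a half-site, those being the Rarb entry with 3 and an Aldh1a1 entry with 1, and only the Rarb entry held the repeat. Aldh1a3, Crabp2 and Rdh10 had no matching entry. Despite this element, Rarb was close to the limit of detection in the organoids. Its UMI totals in HR- luminal cells were 1, 5, 7 and 2, and the corresponding levels were 0.00963, 0.0582, 0.0809 and 0.0282 CPM. In basal cells Rarb reached 0.834, 0.679, 0.596 and 0.421 CPM, and in HR+ luminal cells 0.948, 1.84, 0.990 and 0 CPM. The gene spans 14:16430839-16819156 (minus strand, GRCm38).

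The uptake and binding genes were both highest in basal cells. Stra6 (9:58063788-58153996, plus strand) encodes the membrane receptor that takes up retinol from its plasma carrier. In basal cells it stood at 44.4 CPM [41.2 to 47.9], 23.8 [21.7 to 26.1], 43.2 [38.4 to 48.5] and 46.3 [41.5 to 51.6]. In HR- luminal cells it stood at 0.424, 0.303, 0.358 and 0.310 CPM. The classes did not overlap in any library, and the basal level was 105-, 78.6-, 121- and 149.5-fold the HR- luminal level. HR+ luminal cells were intermediate at 6.16, 4.73, 9.57 and 0.732 CPM, the last of these resting on 2 UMIs, so that the basal level was 7.21-, 5.04-, 4.52- and 63.3-fold higher.

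After each cell was thinned to 5000 UMIs, a Stra6 UMI was found in 14.3%, 6.35%, 9.46% and 11.5% of basal cells (32.5%, 16.5%, 25.3% and 23.3% without thinning). In HR- luminal cells the thinned share was 0.171%, 0.1799%, 0.212% and 0.118%. Whether free RNA in the droplets gave this share was not tested. Before thinning, median depths were 20026 to 22130 UMIs in basal and 24718 to 27596 in HR- luminal cells, and 177 basal and 732 HR- luminal cells were too shallow to enter.

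Crabp2 (3:87948666-87953376, plus strand) encodes the cytosolic protein that carries retinoic acid to its nuclear receptors. Its basal level was 309 CPM [300.2 to 318], 155 [149 to 160.3], 316 [303 to 330.1] and 233 [222 to 244]. HR- luminal cells held 36.3, 51.1, 42.6 and 46.9 CPM, and HR+ luminal cells 59.5, 41.7, 102 and 45.8 CPM. Basal cells were thus above both luminal classes in all 4 libraries, by 8.51-, 3.02-, 7.43- and 4.96-fold over HR- luminal and by 5.19-, 3.70-, 3.11- and 5.09-fold over HR+ luminal cells. Unlike Stra6, Crabp2 was found widely in HR- luminal cells, in 14.9%, 19.7%, 14.6% and 17.1% of them after thinning (42.2%, 49.7%, 40.9% and 45.8% without), against 45.8%, 28.7%, 45.6% and 34.4% of basal cells (75.2%, 51.8%, 67.2% and 55.2%).

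Genes were compared when they reached 10 CPM on average over all classes and libraries, which 8041 genes did. Of these, 1.80% were at least 2-fold higher in basal cells than in both other classes in all 4 libraries, 3.07% were so in HR- luminal cells and 3.47% in HR+ luminal cells. Of the 5 named genes that could be compared, Stra6 and Crabp2 met the basal criterion, and 0 met the HR- luminal or the HR+ luminal one. Stra6 did not exceed 9.57 CPM in either luminal class. It thus entered the comparison only through the basal level on which it was then called. The wider pathway was described with a list of 50 retinoid genes, of which 19 could be compared and 17 were under 1 CPM in every class and library. From that list, Fabp5, which also carries retinoic acid, met the basal criterion at 5344, 4097, 4105 and 3344 CPM in basal against 191 to 266 CPM in HR- luminal cells. Rbp7, a retinol-binding protein, met the HR- luminal criterion at 1153, 1415, 1011 and 799 CPM. Rbp4, the plasma retinol carrier, and Tgm2, a transglutaminase induced by retinoic acid, met the HR+ luminal one, with Rbp4 at 57.8, 30.5, 75.9 and 27.5 CPM. Rbp4 did not exceed 9.09 CPM in the other classes, so it likewise entered only through the class in which it was called.

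**Figure D1:**
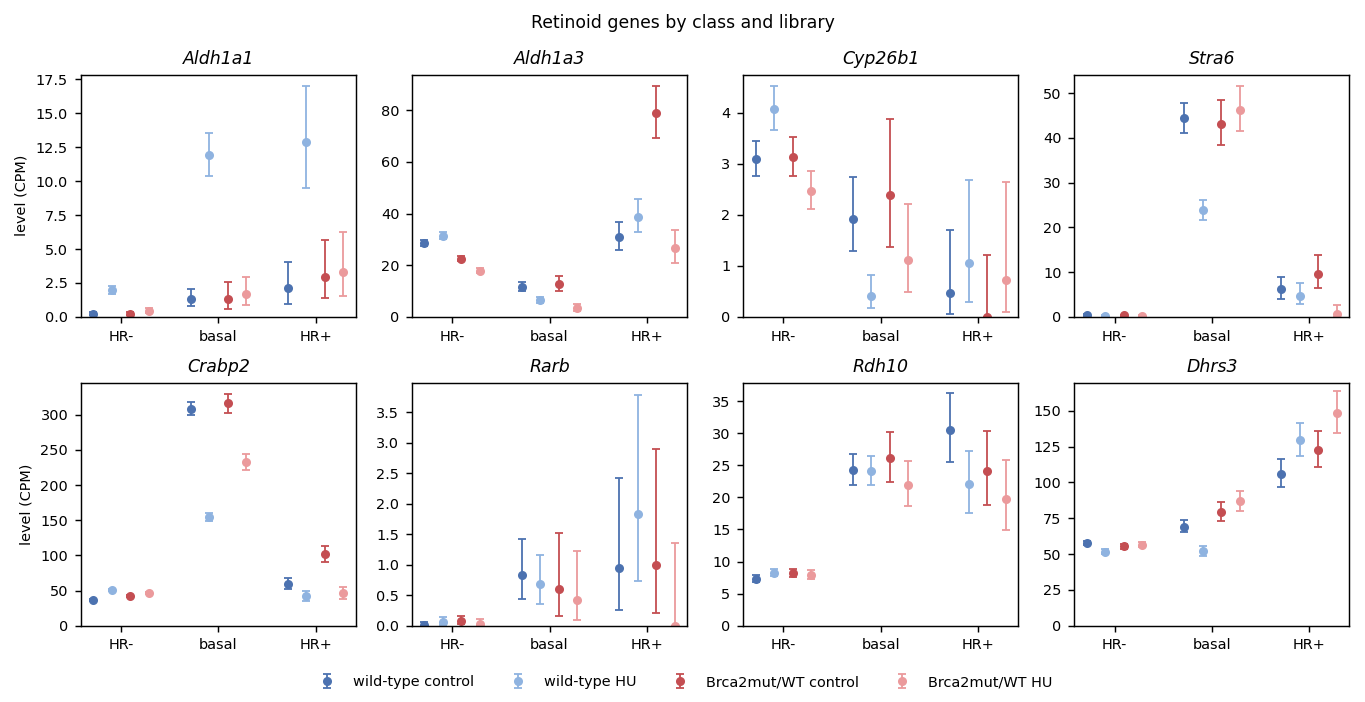
Levels of the 8 genes in CPM (linear axes from 0, 1 panel per gene), 1 point per library for HR- luminal, basal and HR+ luminal cells, with exact 95% Poisson intervals that cover counting error only. Stra6 was between 23.8 and 46.3 CPM in basal and below 0.5 CPM in HR- luminal cells of every library, whereas Dhrs3 was above 50 CPM in every class.

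The enzymes that interconvert retinol and retinal were present in all classes. Rdh10 (1:16105774-16133734, plus strand) carries out the oxidation of retinol to retinal. It stood at 7.34, 8.27, 8.26 and 7.95 CPM in HR- luminal, 24.2, 24.1, 26.1 and 21.9 CPM in basal and 30.6, 22.1, 24.1 and 19.8 CPM in HR+ luminal cells. HR- luminal cells were lowest in every library, and the basal and HR+ luminal intervals overlapped in all 4. The interval of the basal to HR+ luminal ratio was nevertheless off 0 in wild-type control (log2 ratio −0.33 [−0.63 to −0.03]). Dhrs3 (4:144892827-144928209, plus strand) reduces retinal back to retinol and is itself induced by retinoic acid. It stood at 57.6, 51.6, 55.4 and 56.3 CPM in HR- luminal, 69.2, 52.1, 79.4 and 86.9 CPM in basal and 106, 129.7, 123 and 148 CPM in HR+ luminal cells. The HR+ luminal level was the highest in every library, while the basal and HR- luminal intervals overlapped in wild-type HU. A Dhrs3 UMI was found in 21.9% to 24.2% of thinned HR- luminal cells.

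Aldh1a3 (7:66390890-66427517, minus strand) encodes an aldehyde dehydrogenase that oxidises retinal to retinoic acid. Its level in HR- luminal cells was 28.7 CPM [27.6 to 29.7], 31.5 [30.3 to 32.7], 22.6 [21.6 to 23.6] and 18.0 [17.0 to 19.0]. Both Brca2mut/WT libraries were below both wild-type libraries in this class, but the order was uneven over the tag pools given below. Among controls, the log2(CPM + 1) ratio of Brca2mut/WT to wild type in pools of equal number ran from −1.77 to 0.58. In 1 of 4 pools Brca2mut/WT control was the higher one. HR+ luminal cells held 31.0, 38.9, 78.8 and 26.7 CPM and basal cells 11.5, 6.42, 12.7 and 3.51 CPM, so that basal cells were lowest in every library. The HR+ luminal value in Brca2mut/WT control was set in good part by 1 cell, which held 75 of the 239 UMIs (31.4%).

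Aldh1a1 (19:20492715-20643465, plus strand), the related dehydrogenase used as a stem and progenitor marker, was rare outside 1 library. In basal cells it stood at 1.35, 11.9, 1.34 and 1.68 CPM, in HR+ luminal cells at 2.13, 12.9, 2.97 and 3.295 CPM, and in HR- luminal cells at 0.250, 1.95, 0.219 and 0.451 CPM. Wild-type HU was the highest library in all 3 classes. Of the 228 UMIs in wild-type HU basal cells, 112 were in pool 2, 39 in pool 4 and 68 in the 142 cells without a single tag, which also held the top cell with 17. At least 1 UMI was found in 64 of 372 cells in pool 2 and 28 of 157 in pool 4, against 4 of 110 in pool 1 and 2 of 87 in pool 3. The basal level was 11.04 CPM without the cell that held the most. In HR- luminal cells of the same library, a single cell held 67 of the 122 UMIs in pool 4, and the level of the class fell from 1.95 to 1.17 CPM without it. The HR+ luminal level of 12.9 CPM rested on 49 UMIs and was 8.48 CPM without its top cell. Aldh1a7 is nearly identical in sequence to Aldh1a1, so reads could have been assigned to either. In basal cells Aldh1a7 was listed at 0.898, 1.93, 1.04 and 0.561 CPM.

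Cyp26b1 (6:84571414-84593908, minus strand), which degrades retinoic acid, was low throughout. It stood at 3.09, 4.08, 3.13 and 2.46 CPM in HR- luminal cells, 1.92, 0.418, 2.38 and 1.12 CPM in basal cells, and did not exceed 1.05 CPM in HR+ luminal cells. Its relative Cyp26a1 showed the reverse order, at 5.32, 7.83, 12.2 and 10.1 CPM in basal cells with no more than 0.620 CPM in HR- luminal cells.

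Basal cells were not uniform for the uptake and binding genes. Many of them carried transcripts of a squamous list, scored as the sum of 10 genes that included Krt1, Krt10, Krt6a, Ivl and Sprr1a. Krt6a was the most abundant of these in basal cells, at 500 to 1301 CPM of list sums of 968 to 2607 CPM. Sprr1a was at 72.4 to 730 CPM, whereas Krt1, Ivl and Lor were at or below 7.83 CPM and added little to the score. The share of basal cells with over 300 CPM of this list was 45.6%, 33.2%, 32.8% and 22.5%. Within these cells Stra6 stood at 77.2, 51.5, 99.3 and 117 CPM, against 9.88, 9.37, 10.8 and 20.01 CPM in the remaining basal cells. Crabp2 followed the same order, at 511, 358, 696 and 648 CPM against 95.7, 48.4, 96.9 and 79.1 CPM. Aldh1a3 was also higher on the squamous side, at 16.4, 11.1, 22.0 and 6.75 CPM against 6.46, 3.97, 7.29 and 2.31 CPM. Its Brca2mut/WT HU values rested on 13 and 12 UMIs, and their intervals overlapped. Rdh10 was higher on the squamous side in all 4 libraries with overlapping intervals, at 26.9, 28.4, 26.9 and 23.9 CPM against 21.5, 21.9, 25.6 and 21.2 CPM. Dhrs3 was lower on the squamous side in all 4 libraries, at 65.5, 48.8, 73.2 and 59.2 CPM against 73.1, 53.9, 83.0 and 97.2 CPM, but only the Brca2mut/WT HU intervals did not overlap. When the squamous-rich cells were left out of the basal class, Stra6 fell under the limit of 10 CPM on average and was not compared in that setting. It was still 23.3-, 31.0-, 30.2- and 64.6-fold above its HR- luminal level. Against the whole HR+ luminal class it was only 1.60-, 1.98-, 1.13- and 27.3-fold, the last over a level that rests on 2 UMIs. Crabp2 in these basal cells was 1.61-, 1.16-, 0.953- and 1.73-fold its HR+ luminal level. HR+ luminal cells also held cells over 300 CPM of the list, and these are called squamous-rich by the same rule. Most of the list came from 1 gene in this class. Sprr1a stood at 887 to 3291 CPM of list sums of 1298 to 3661 CPM, with Krt1 and Ivl at or below 1.90 CPM. Stra6 was at 8.62, 7.93, 12.4 and 0.658 CPM in the squamous-rich cells against 2.40, 0, 1.28 and 0.825 CPM in the remaining HR+ luminal cells. Crabp2 stood at 73.3, 61.2, 125 and 55.3 CPM against 38.3, 13.0, 33.4 and 33.8 CPM there, so that Stra6 was higher in the squamous-rich cells in 3 of 4 libraries and Crabp2 in 4 of 4. Unlike in basal cells, Dhrs3 was higher in the squamous-rich HR+ luminal cells of wild-type control, wild-type HU and Brca2mut/WT control. It was at 113, 170 and 143 CPM against 96.4, 69.5 and 63.0 CPM in the remaining HR+ luminal cells of these libraries. The 2 intervals overlapped in wild-type control. Dcn was also higher in the squamous-rich cells of these libraries, at 757, 1620 and 2074 CPM against 619, 613 and 465 CPM. Its part in the Dhrs3 difference was not tested. With squamous-rich cells left out of both classes, basal Stra6 was 4.125-, 8.42- and 24.2-fold the HR+ luminal level in wild-type control, Brca2mut/WT control and Brca2mut/WT HU, while HR+ luminal Stra6 was 0 in wild-type HU. The remaining HR+ luminal cells held 4 Stra6 UMIs in wild-type control and 1 in Brca2mut/WT control, and the whole class held 2 in Brca2mut/WT HU. These folds, and the order of Stra6 between the 2 sides, are uncertain for that reason. In the same setting Crabp2 was 2.496-, 3.72-, 2.90- and 2.34-fold its HR+ luminal level, but 2.64-, 0.946-, 2.27- and 1.69-fold its HR- luminal level, and did not meet the criterion. The removal from both classes was chosen after seeing the data.

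**Figure D2:**
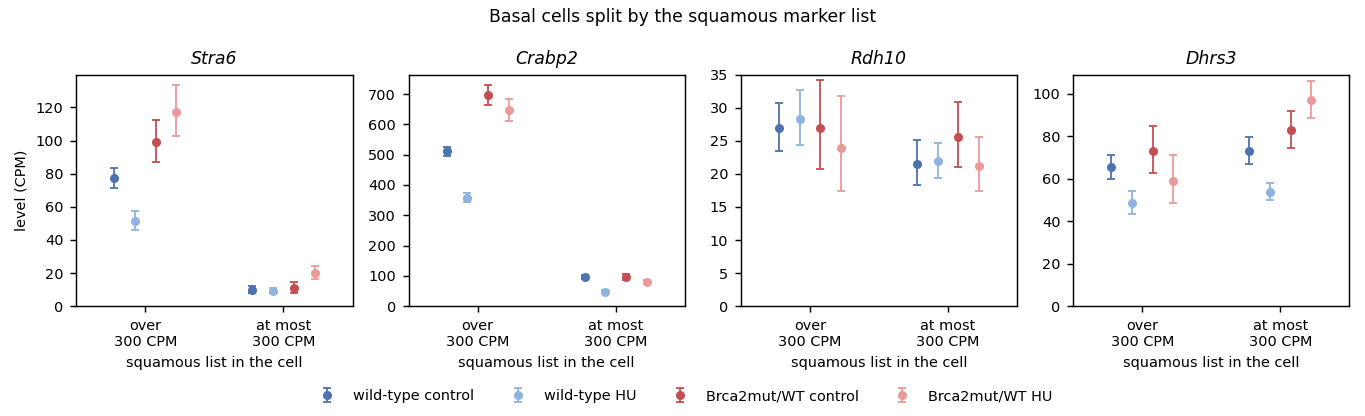
Levels in CPM (linear axes from 0) of 4 of the genes in basal cells with over 300 CPM and with at most 300 CPM of the squamous list, 1 pair per library, with exact 95% Poisson intervals. Stra6 and Crabp2 were higher in the squamous-rich cells of all 4 libraries, while the intervals of Rdh10 overlapped and Dhrs3 was lower with overlapping intervals in all but Brca2mut/WT HU.

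The co-occurrence of Stra6 and Crabp2 was also seen cell by cell. In thinned basal cells with a Stra6 UMI, Crabp2 was found in 74.7%, 78.8%, 71.4% and 66.7% of cells, against 41.0%, 25.3%, 42.9% and 30.2% of those without. The intervals of the 2 sets of cells overlapped in every library for Dhrs3 and Rdh10, and their differences were not tested. Dhrs3 was found in 31.9%, 21.2%, 32.1% and 27.3% of Stra6-positive and in 29.3%, 22.9%, 37.3% and 37.6% of Stra6-negative cells. Rdh10 was less frequent with Stra6 in 4 of 4 libraries. It was found in 6.59%, 3.85%, 3.57% and 0% of Stra6-positive cells, the last being 0 of 33 with an upper bound of 10.6%, and in 12.3%, 11.99%, 13.8% and 10.2% of Stra6-negative cells. In HR- luminal cells, where Stra6 was almost absent, Crabp2 was no more frequent with Aldh1a3 than without it in 3 libraries (14.5% against 14.9%, 18.3% against 19.9% and 15.2% against 17.2%), while in Brca2mut/WT control it was found in 24.6% [19.1 to 30.7] against 13.9% [12.7 to 15.2]. Tag pool 2 of that library held little of either gene. Without it the shares were 25.2% [19.7 to 31.5] and 17.4% [15.9 to 19.0], a smaller gap.

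**Figure D3:**
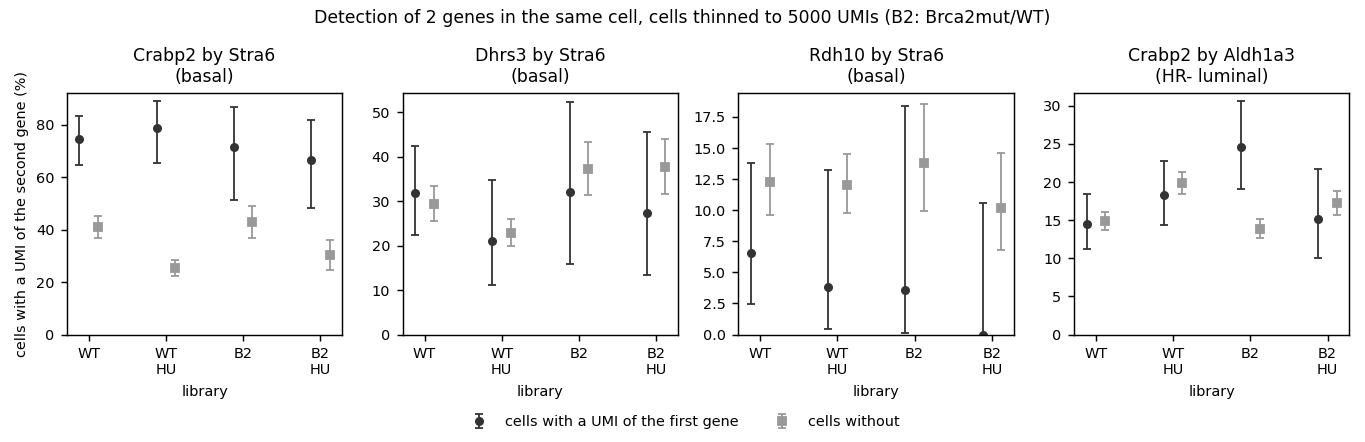
Share of thinned cells (percent, 1 panel per gene pair, WT for wild type and B2 for Brca2mut/WT) in which a second gene was found, among cells with and without a UMI of the first, per library, with exact 95% binomial intervals. Crabp2 was found in 66.7% to 78.8% of Stra6-positive basal cells against 25.3% to 42.9% of Stra6-negative ones.

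The design asks what HU and the Brca2 mutation change, and the 4 libraries allow HU against control within each genotype and Brca2mut/WT against wild type within each treatment. A ratio past 1.5-fold on the log2(CPM + 1) scale is called here only for genes at 10 CPM or more on average in the class, and log2 ratios below are of CPM without a pseudocount. In HR- luminal cells 3 of the genes were abundant enough. Of 7553 genes in this class, 1.11% passed for HU in wild type, 1.01% for HU in Brca2mut/WT, 0.702% for genotype among controls and 0.781% for genotype among HU libraries. The 3 genes gave 0 calls in the first 3 comparisons. In the last, Aldh1a3 passed, at 18.0 CPM in Brca2mut/WT HU against 31.5 CPM in wild-type HU (log2 ratio −0.81 [−0.91 to −0.71]). It was lower in Brca2mut/WT HU in each of the 4 pools of equal number, but the log2 ratio ran from −3.89 in pool 2 to −0.30 in pool 3, and without pool 2 the ratio on the log2(CPM + 1) scale was −0.51 in place of −0.78 and no longer passed. Crabp2 was 1.41-fold higher in wild-type HU than in wild-type control (log2 ratio 0.49 [0.43 to 0.56]), which did not pass. Dhrs3 ratios stayed between −0.16 and 0.12 on the log2 scale in all 4 comparisons. Ratios that did not pass could still differ between pools of equal number. On the log2(CPM + 1) scale, Crabp2 among controls ran from −2.41 to 1.52, past 1.5-fold in 2 of 4 pools. Aldh1a3 for HU in wild type ran from −0.45 to 1.56, also past it in 2 of 4. For HU in Brca2mut/WT, 0 of 4 pools were past it for Aldh1a3, Crabp2 or Dhrs3.

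In basal cells 4 of the genes were abundant enough, and of 7936 genes 5.38% passed for HU in wild type, 3.15% for HU in Brca2mut/WT, 2.84% for genotype among controls and 6.29% for genotype among HU libraries. Stra6 and Crabp2 passed for HU in wild type. Stra6 was lower in wild-type HU at 23.8 CPM against 44.4 CPM in wild-type control (log2 ratio −0.90 [−1.07 to −0.73]). Crabp2 was lower at 155 against 309 CPM (−0.998 [−1.06 to −0.93]). In Brca2mut/WT, Stra6 was at 46.3 CPM with HU and 43.2 CPM without (0.10 [−0.13 to 0.33]) and Crabp2 at 233 and 316 CPM (−0.44 [−0.54 to −0.35]), so that 0 of 4 genes passed. The difference between the genotypes in these HU ratios was not tested. Between genotypes 0 of 4 passed among controls, and 3 of 4 passed among HU libraries, namely Stra6 (0.96 [0.75 to 1.17]), Crabp2 (0.59 [0.50 to 0.68]) and Dhrs3 (0.74 [0.59 to 0.88]), all higher in Brca2mut/WT HU. These comparisons share the wild-type HU library, which was the lowest of the 4 for Stra6, Crabp2 and Dhrs3.

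Aldh1a3 was under the limit of 10 CPM on average in basal cells, so no call was made for it there. It was lower with HU in both genotypes, at 6.42 against 11.5 CPM in wild type (log2 ratio −0.85 [−1.19 to −0.51]) and 3.51 against 12.7 CPM in Brca2mut/WT (−1.85 [−2.56 to −1.19]). The Brca2mut/WT values rested on 85 UMIs without HU, of which 1 cell held 25 (29.4%), and on 25 with HU, of which 1 cell held 6 (24%). The direction was the same in 4 of 4 pools of wild type and 3 of 3 pools of Brca2mut/WT that could be paired by tag number, with the reservation on tag numbers given above. The sizes differed, with log2(CPM + 1) ratios of −1.56 to −0.31 in wild type and −2.02 to −0.07 in Brca2mut/WT.

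The makeup of the basal class differed between the same libraries. Pool 2 supplied 51.2% of the tagged basal cells of wild-type HU (372 of 726), 8.52% of those of wild-type control, 1 cell of Brca2mut/WT control and 11 cells of Brca2mut/WT HU. In wild-type HU the 4 pools held 29.4, 15.1, 79.5 and 26.5 CPM of Stra6, and in wild-type control 56.2, 67.3, 19.6 and 45.6 CPM. Stra6 was thus lower with HU in pools 1, 2 and 4 (log2 ratio −0.93, −2.16 and −0.78) and higher in pool 3 (2.02). Crabp2 was also lower in pools 1, 2 and 4 (−0.86, −2.16 and −0.65) and higher in pool 3 (0.57). On the log2(CPM + 1) scale, leaving out pool 2 changed the HU ratio in wild type from −0.87 to −0.41 for Stra6 and from −0.99 to −0.56 for Crabp2, and neither passed then. The share of squamous-rich cells also moved with these libraries, being 45.6% in wild-type control against 33.2% with HU. Its part and that of the pools in the ratios was not tested beyond these values.

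For genotype among HU libraries, the 3 pools with enough basal cells gave Dhrs3 log2 ratios of 0.23, −0.01 and 0.33, none past 1.5-fold, although the whole class had passed. Stra6 was higher in Brca2mut/WT HU in pool 1 (1.25) and lower in pools 3 and 4 (−0.62 and −0.23). Crabp2 was higher in pools 1 and 4 (0.70 and 0.17) and lower in pool 3 (−0.61). On the log2(CPM + 1) scale, leaving out pool 2 took the ratio of Stra6 from 0.93 to 0.59, of Crabp2 from 0.59 to 0.27 and of Dhrs3 from 0.73 to 0.57, and leaving out pool 1 took those of Stra6 and Crabp2 to 0.54 and 0.42. Stra6 still passed without pool 2, and the other values in this list did not. A looser cell filter had no upper limit of genes per cell and a mitochondrial limit of 10%. With it only Stra6 passed, and Crabp2 and Dhrs3 gave 0.47 and 0.45.

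HR+ luminal cells were few, at 123 to 176 per library, and 4 of the genes could be compared. Of 7884 genes 8.69% passed for HU in wild type, 9.32% for HU in Brca2mut/WT, 6.95% for genotype among controls and 7.19% for genotype among HU libraries. The first and the last of these comparisons gave 0 calls among the 4 genes. In Brca2mut/WT, Aldh1a3 was lower with HU at 26.7 against 78.8 CPM (log2 ratio −1.56 [−1.96 to −1.18]) and Crabp2 at 45.8 against 102 CPM (−1.15 [−1.46 to −0.85]). Among controls, both were higher in Brca2mut/WT than in wild type, Aldh1a3 by 2.54-fold and Crabp2 by 1.71-fold. All of these ratios use Brca2mut/WT control, in which single cells held 31.4% of the Aldh1a3 and 24.7% of the Crabp2 UMIs of the class. The looser filter (no upper limit of genes, mitochondrial limit of 10%) gave genotype ratios among controls of 0.21 for Aldh1a3 and 0.53 for Crabp2. These are on the log2(CPM + 1) scale, and neither passed. The HU ratios in Brca2mut/WT were then −0.72 for Aldh1a3, which passed, and −0.44 for Crabp2, which did not. Leaving out pool 1 gave 0.27 for Crabp2 among controls.

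**Figure D4:**
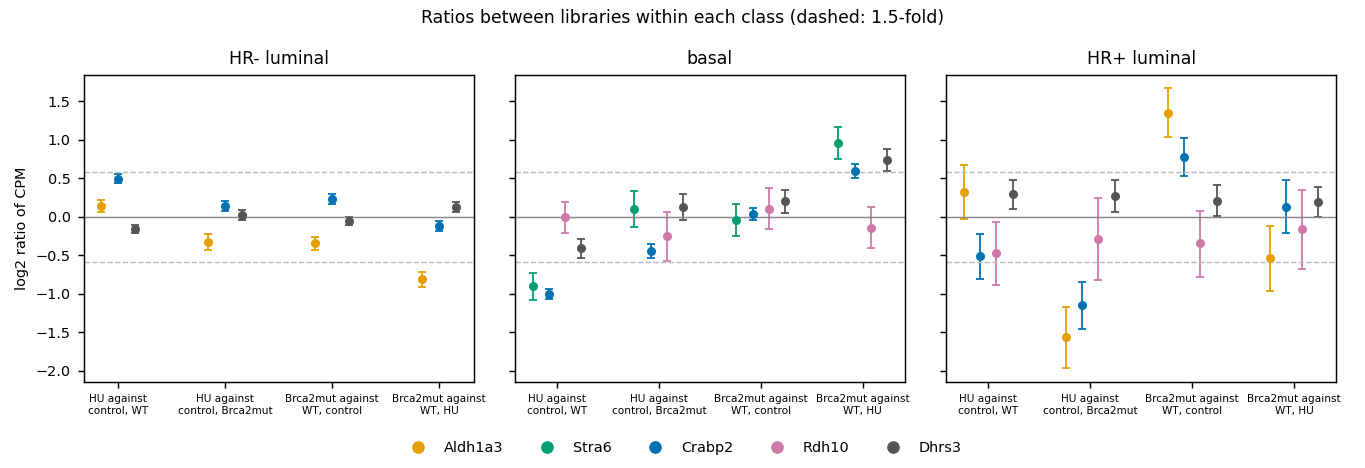
Log2 ratios between libraries for the genes at 10 CPM or more on average, in HR- luminal, basal and HR+ luminal cells, with exact 95% intervals that cover counting error only and dashed lines at 1.5-fold either way. In basal cells Stra6 and Crabp2 were below the lower line for HU in wild type (−0.90 and −0.998), and Stra6 was near 0 for HU in Brca2mut/WT (0.10).

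From the wider list, the pathway genes that passed in basal cells were the intestinal-type retinol-binding protein Rbp2, the retinol-oxidising alcohol dehydrogenase Adh7, the receptor partner Rxra, Rbp7 and Tgm2, next to the genes above. With those counted, 4, 3, 1 and 5 of 18 genes of the list passed in the 4 comparisons, in the order given above. The shares of all 7936 genes were 5.38%, 3.15%, 2.84% and 6.29%, and the difference was not tested. Adh7 was higher with HU in both genotypes, at 119.9 against 35.9 CPM in wild type and 84.9 against 34.6 CPM in Brca2mut/WT. Rbp2 was lower with HU in both, at 6.84 against 27.5 CPM and 9.12 against 15.9 CPM. Its HU levels were under the limit of 10 CPM, so Rbp2 entered these comparisons only through the control levels on which it was called. The receptor Rarg stood at 39.8, 31.6, 38.0 and 37.9 CPM in basal cells and 11.6 to 13.9 CPM in HR- luminal cells, and did not pass in any comparison of libraries. In HR- luminal cells Rbp7 was the only other gene of the list to pass, and it did so in the same comparison as Aldh1a3. That made 2 of 14 genes of the list, beside 0.781% of 7553 genes. In HR+ luminal cells 2, 5, 6 and 5 of 19 genes of the list passed in the 4 comparisons, in the order given above and with Aldh1a3 and Crabp2 counted. The shares of all 7884 genes were 8.69%, 9.32%, 6.95% and 7.19%, and the difference was again not tested. Rbp2, at 3.55, 4.73, 26.4 and 16.8 CPM in this class, entered these counts only through the Brca2mut/WT libraries.

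Within HR- luminal cells, the tag pools differed more than the libraries did for Aldh1a3 and Crabp2. Aldh1a3 in pools 1 to 4 was at 25.4, 12.5, 37.2 and 21.6 CPM in wild-type control and at 26.2, 38.7, 26.9 and 52.3 CPM in wild-type HU. In Brca2mut/WT control it was at 22.9, 2.94, 29.7 and 32.9 CPM and in Brca2mut/WT HU at 17.7, 2.61, 21.9 and 22.3 CPM. Pool 2 was therefore far below the others in both Brca2mut/WT libraries, lowest by a smaller margin in wild-type control, and not lowest in wild-type HU. Crabp2 showed the same gap, at 46.4, 3.32, 40.1 and 96.4 CPM in Brca2mut/WT control and 50.4, 3.29, 52.6 and 98.1 CPM in Brca2mut/WT HU. In wild-type control its pools were at 35.0, 22.0, 39.5 and 32.9 CPM, and in wild-type HU at 52.6, 65.4, 44.4 and 40.0 CPM. A Crabp2 UMI was found in 1.59% and 1.05% of the thinned pool 2 cells of the Brca2mut/WT libraries and an Aldh1a3 UMI in 0.870% and 1.05%. Pool 2 held 707 and 416 HR- luminal cells there, and Dhrs3 in it was at 54.9 and 54.3 CPM, close to pools 1 and 3.

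Of 7658 genes in HR- luminal cells, 0.810% were at least 4-fold lower in pool 2 than in every other pool of both Brca2mut/WT libraries, and Aldh1a3 and Crabp2 were among them, as was Rbp7. The criterion was set after these values were seen. Over all 16 pools the highest level was 20.01 times the lowest for Aldh1a3 and 29.8 times for Crabp2, and 1.84% of genes reached 10-fold, against a median spread of 1.62-fold on the CPM + 1 scale. Rdh10 and Dhrs3 spread by 2.28- and 2.14-fold.

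Dhrs3 followed another division of the pools. Pools 1 to 4 were at 64.4, 43.9, 59.4 and 32.9 CPM in wild-type control and at 61.1, 30.0, 60.1 and 32.5 CPM in wild-type HU. In Brca2mut/WT control they were at 62.0, 54.9, 59.5 and 35.5 CPM and in Brca2mut/WT HU at 57.9, 54.3, 58.1 and 43.0 CPM. Pools 1 and 3 were above pools 2 and 4 in all 4 libraries, as they were for basal Dhrs3 wherever a pool held at least 20 cells. A division of this kind was common, since 36.0% of 7658 genes had pools 1 and 3 on one side of pools 2 and 4 in all 4 libraries, and 1 of 3 members tested did. Rdh10, which was below the 10 CPM limit, lay the other way, at 6.17 to 8.22 CPM in pools 1 and 3 and 8.20 to 14.1 CPM in pools 2 and 4, and without overlap inside any library. This order was lost when each cell was given equal weight. Cyp26b1 was highest in pool 4 or pool 2 of every library, with a maximum of 9.37 CPM in pool 4 of Brca2mut/WT HU.

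**Figure D5:**
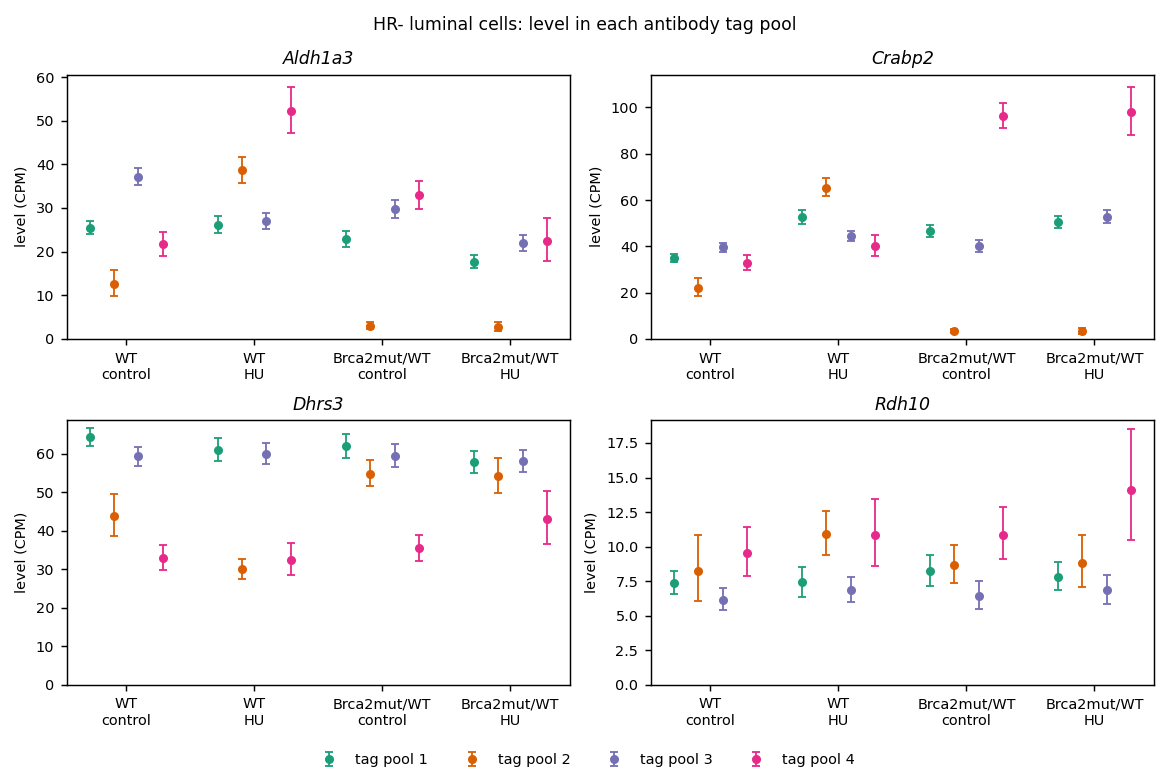
Levels in CPM (linear axes from 0) of 4 of the genes in HR- luminal cells of each tag pool, with exact 95% Poisson intervals; pools are unlabelled and are not replicates. Aldh1a3 and Crabp2 were between 2.61 and 3.32 CPM in pool 2 of both Brca2mut/WT libraries and at least 12.5 CPM in each of the 14 other pools, whereas Dhrs3 was higher in pools 1 and 3.

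HR- luminal cells were also split by the genes that mark their states, after thinning. Cells with a UMI of the milk protein gene Lalba had more Crabp2 in 4 of 4 libraries, with log2 ratios of 0.32 to 0.57 and all 4 intervals off 0. The same cells had less Rdh10 (−0.90 to −0.69) and less Dhrs3 (−0.62 to −0.39) in 4 of 4 libraries, and these directions held with pool 2 left out. Within pool 2 alone they did not all hold. There Dhrs3 was higher in the Lalba-positive cells in 3 of 4 libraries (−0.13 to 0.71), Rdh10 in 1 of 4 and Crabp2 in 2 of 4. The intervals of Dhrs3 and Rdh10 in pool 2 were off 0 in 0 libraries. Pools 1, 3 and 4 were not split one by one. Cells with a UMI of the luminal progenitor marker Cd14 had more Aldh1a3 in 4 of 4 libraries (0.30 to 0.82), with 3 intervals off 0. With pool 2 left out the ratios were smaller (0.18 to 0.52), again in 4 of 4 libraries and with 3 intervals off 0. In pool 2 alone, Aldh1a3 was higher in the Cd14-positive cells in 3 of 4 libraries, with 1 interval off 0. Cells with a UMI of Kit, another progenitor marker, had less Dhrs3 in 4 of 4 libraries (−0.37 to −0.17) and more Aldh1a3 in 2 of 4. Cells with a UMI of the surface tetraspanin Tspan8 had less Dhrs3 in 4 of 4 libraries (−0.24 to −0.10), with 1 interval off 0. Within pool 2 alone, Dhrs3 was higher in the Tspan8-positive cells in 3 of 4 libraries (−0.50 to 1.74), with 1 interval off 0, and higher in the Kit-positive cells in 2 of 4. Csn3 could be used in 1 library only, because nearly all cells held it. Cells with a UMI of the proliferation genes Top2a or Mki67 showed no direction that was shared by all 4 libraries for Aldh1a3, Crabp2, Rdh10 or Dhrs3.

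The genes whose levels were most like those of the named genes over the pools were then listed by Pearson's r of log2(CPM + 1), given as a description because pools of a library share its depth and handling. Over 14 basal pools and 5570 genes, Stra6 was most like Tgfa (r = 0.84), Tspo (0.80) and Fscn1 (0.79), and r was 0.79 with Crabp2. Crabp2 was most like Ostf1 (0.89), Maf (0.88) and Gja1 (0.86). Over 16 HR- luminal pools and 5385 genes, Aldh1a3 was most like Anxa1 (0.96), Ldhd (0.95) and Rbp7 (0.95), and Crabp2 most like Igfbp5 (0.97), Krt19 (0.96) and Capg (0.96). Dhrs3 was most like Elovl5 (0.95), Ccdc186 (0.94) and Thap3 (0.93) in HR- luminal cells. Among the named genes, r was 0.88 for Aldh1a3 with Crabp2 and −0.76 for Dhrs3 with Rdh10 in HR- luminal cells. The HR- luminal values for Aldh1a3 and Crabp2 include pool 2 of both Brca2mut/WT libraries, where both genes were far below the other pools. They were not recomputed without it. Dhrs3 and Rdh10 both followed the division of pools 1 and 3 from pools 2 and 4, in opposite directions. With the 10 CPM limit, 36.0% of genes showed that division. In HR+ luminal cells only 6 pools had at least 20 cells. Over these and 5719 genes, r was 0.97 to 0.99 with C1galt1, Lamp1 and Eif1 for Aldh1a3, Gm2000, Smc4 and Malat1 for Rdh10, and Pak1, Psmb10 and Ogfod2 for Dhrs3. The highest values among so many genes over 6 pools cannot be set against those over 14 or 16 pools.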

How the data were processed

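The deposited values were UMI counts per gene and antibody tag; the authors made them with Cell Ranger (6.0.2 in the submitters' notes, 6.1.1 in the matrix headers) on mm10. The notes also name R 4.1.3 and Seurat 4.0. Here, cells with 1000 to 6000 genes and at most 5% mitochondrial UMIs were kept, without a doublet caller, and a tag was assigned when it held at least 70% of 50 or more tag UMIs. Counts were summed per class and scaled to CPM; with 1 library per condition no model was fitted. Exact intervals used SciPy 1.17.1 with Python 3.11.15, numpy 2.4.6 and pandas 2.3.3. A level of 0 allows up to 3 counts. The ratio step recovered changed genes in simulated counts. These were Poisson counts in which genes at 20 CPM or more were changed by more than the 1.5-fold threshold. They held no variation between cells, pools or animals, so recovery says nothing about such variation. Members and lists were chosen with earlier results of these data known. Named were the 8 genes, pathway genes called in a comparison, the 3 genes most like each member at 20 CPM or more, class markers and Brca2. Chosen after seeing the data were the within-pool ratios, the pool 2 and 10-fold criteria, the HR+ luminal splits, the removal of squamous-rich cells from basal and HR+ luminal cells together, the top-cell values, and pools of at least 20 cells and HR- luminal pools in the likeness lists. Rarg, Cyp26a1 and Aldh1a7 were named outside the rule. Coordinates are from the GENCODE annotation of GRCm38, promoters from RefSeq.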

Additional observations from a re-analysis of the deposited data

How the results depend on the processing

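No paired analysis was possible because each condition had 1 library and no result came from a test. Each log2 ratio and each count of members past 1.5-fold was recomputed under the alternatives. The share of all genes past the fold is not given here for the alternatives. The counts below therefore show only how the calls on members move, and not whether members pass more often than other genes. Of 440 recomputed ratios, 332 moved by less than counting error and 108 moved further; 40 changed sign, 0 of them for a ratio past 1.5-fold. Median-of-ratios scaling, the smaller pseudocount and cells with a single tag moved no ratio beyond counting error. Of 168 recomputed counts, 129 stayed and 39 moved. Counts of members past 1.5-fold were 0, 2 and 0 in HR- luminal, basal and HR+ luminal cells for HU in wild type, 0, 0 and 2 for HU in Brca2mut/WT, 0, 0 and 2 for genotype among controls, and 1, 3 and 0 for genotype among HU libraries. The looser cell filter changed both limits together, with no upper limit of genes per cell and a mitochondrial limit of 10%. With it the counts became 1 and 1 for HU in wild type in HR- luminal and basal cells. In basal cells the count was 1 for genotype among HU libraries. In HR+ luminal cells it was 1 for HU in Brca2mut/WT and 0 for genotype among controls. With equal weight per cell, HU in Brca2mut/WT gave 2 in basal cells, and in HR+ luminal cells the counts were 1 for HU in wild type, for genotype among controls and for genotype among HU libraries. Stricter class thresholds gave 1 for genotype among HU libraries in HR+ luminal cells, and cells with a single tag gave 1 for HU in wild type there. At a 2-fold threshold the counts were 0 for genotype among HU libraries in HR- luminal and basal cells and for HU in wild type in basal cells, and 1 for genotype among controls in HR+ luminal cells. Without the limit on low values they were 1 (HU in wild type) and 2 (genotype, HU) in HR- luminal cells, 5 (HU in wild type), 2 (HU in Brca2mut/WT) and 5 (genotype, HU) in basal cells, and 1, 5 and 3 for the same 3 comparisons in HR+ luminal cells. Without the squamous-rich cells of the basal class the basal lineage count fell from 2 to 0, and it was also 0 without those of both the basal and HR+ luminal classes, a setting chosen after seeing the data; Stra6 was then under the limit of 10 CPM and was not compared. Leaving out 1 pool at a time gave, in HR- luminal, basal and HR+ luminal cells, 0 to 1, 0 to 2 and 0 to 2 for HU in wild type, 0 to 0, 0 to 1 and 2 to 3 for HU in Brca2mut/WT, 0 to 0, 0 to 0 and 1 to 2 for genotype among controls, and 0 to 1, 1 to 3 and 0 to 3 for genotype among HU libraries. Unless a value above shows it, the cause was not tested. Rarb in all classes, Cyp26b1 in HR+ luminal and Stra6 in HR- luminal cells were at about 1 CPM or below and rested on few UMIs, as did Aldh1a1 in HR- luminal cells outside wild-type HU, so the order of the libraries in them is uncertain.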

Other observations

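HR+ luminal cells were mixed for 3 of the genes in a way the lineage comparison does not show. Some of them held over 300 CPM of a stromal list, which came from Dcn, a gene for a matrix proteoglycan, together with higher Prlr and Krt8 than in the rest. Dhrs3 was higher in these cells than in the other HR+ luminal cells in all 4 libraries, at 127, 177, 184 and 176 CPM against 98.1, 111, 73.8 and 136 CPM. The Dhrs3 intervals overlapped in wild-type control and Brca2mut/WT HU. Aldh1a3 was lower in the Dcn-rich cells, at 12.7, 8.49, 43.7 and 12.8 CPM against 38.2, 50.6, 107 and 33.1 CPM. Aldh1a1 was also lower, at 0.846, 0, 0 and 0 CPM against 2.63, 17.8, 5.35 and 4.81 CPM, on few UMIs. The Dcn-rich side held 28 to 50 cells per library, and the intervals cover counting error only. This split was chosen after seeing the data.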
